A study of Mus musculus with 4 samples.

Results

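The glycolysis enzymes described here are 10 genes of the 31053 counted in single thymocytes: the hexokinases Hk1 and Hk2, Gpi1, the phosphofructokinase subunits Pfkl and Pfkp, Aldoa, Gapdh, Pgk1, Pkm and Ldha. The 10 genes were taken by name as enzymes of the pathway from glucose to lactate, and each was measured in all 4 libraries. The libraries came from thymi of FVB/N mice, 1 animal each: a wild type mouse of 6 weeks (WT), a Tal1/Lmo2 transgenic mouse of 6 weeks before leukemia (preleukemic), and 2 Tal1/Lmo2 mice of 3 months that had developed T-cell acute lymphoblastic leukemia, named T-ALL#1 and T-ALL#2. In this line the T-ALL oncogenes Tal1 and Lmo2 are expressed from the proximal Lck promoter, which is active in thymocytes. After red cell lysis, viable single cells were sorted and sequenced from the 3′ end on the 10x Genomics platform, where each mRNA molecule captured is counted once as a unique molecular identifier (UMI). Levels are CPM, the UMIs of a gene scaled to the total UMIs of the cells concerned. Since 1 molecule gives 1 UMI whatever its length, CPM values of different genes were compared without scaling to length.

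Glycolysis splits glucose into pyruvate in the cytosol. Hexokinase traps glucose in the cell as glucose 6-phosphate, Gpi1 turns it into fructose 6-phosphate, phosphofructokinase commits it to the pathway, and Aldoa cleaves the product into 3-carbon units. Gapdh and Pgk1 then carry out the steps that yield NADH and the first ATP, Pkm forms pyruvate with more ATP, and Ldha reduces pyruvate to lactate and so returns NAD+. Dividing thymocytes and T-ALL cells are known for a high rate of glycolysis, and Myc and Hif1a are known to act on many genes of the pathway. Several steps have isoenzymes that are expressed to different degrees in different tissues, of which Hk1 and Hk2 and Pfkl and Pfkp are the pairs followed here.

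Both Myc and Hif1a bind DNA at short motifs centred on CGTG, so the 250 bases upstream of the members' transcription starts were searched on both strands for the E-box CACGTG, for the shorter ACGTG that every such E-box also holds, and for the motif GCGTG. Upstream sequences of all 10 members were found in the RefSeq table for GRCm38.p6, as 15 promoters. CACGTG was found at 1 member, Ldha, in 1 of the 15, and in 6.02% of 32851 mouse promoters of the same length. ACGTG was found at 5 members, in 6 of their 15 promoters, and in 16.6% of all promoters. The 6 include overlapping windows of Aldoa that hold the same match, so 1 site is counted more than once. GCGTG was found at 5 members, in 5 of their 15 promoters, and in 28.2% of all promoters. The 3 promoters below belong to members whose level was higher in cycling cells and in both leukemias, and hold the most ACGTG matches of the 15. Each is printed 5′ to 3′ along the strand of its gene, with matches to CACGTG, or to the shorter ACGTG, on either strand in capitals. A match describes these letters and is not a measured binding site.
Ldha, chr7:46845554-46845803, plus strand: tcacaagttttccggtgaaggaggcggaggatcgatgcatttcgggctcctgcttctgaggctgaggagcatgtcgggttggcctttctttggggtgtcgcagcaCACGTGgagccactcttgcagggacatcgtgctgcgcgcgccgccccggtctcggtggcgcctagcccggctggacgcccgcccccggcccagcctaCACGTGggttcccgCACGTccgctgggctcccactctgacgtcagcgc
Hk2, chr6:82774455-82774704, minus strand: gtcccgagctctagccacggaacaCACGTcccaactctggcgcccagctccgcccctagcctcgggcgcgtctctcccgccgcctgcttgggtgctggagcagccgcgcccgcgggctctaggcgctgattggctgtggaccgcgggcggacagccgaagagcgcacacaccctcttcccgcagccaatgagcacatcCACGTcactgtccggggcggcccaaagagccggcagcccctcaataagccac
Pgk1, chrX:106186850-106187099, plus strand: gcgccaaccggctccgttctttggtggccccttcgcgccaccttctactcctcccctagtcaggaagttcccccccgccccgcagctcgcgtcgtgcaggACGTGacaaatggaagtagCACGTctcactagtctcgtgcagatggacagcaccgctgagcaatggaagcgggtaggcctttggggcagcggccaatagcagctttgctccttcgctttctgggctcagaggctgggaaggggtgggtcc
In Ldha, which makes lactate, 2 CACGTG matches and 1 further match to ACGTG lie in this window. Hk2 and Pgk1 hold 2 ACGTG matches each and no CACGTG. Gapdh and Pfkl, also higher in cycling cells and in both leukemias, hold 0 ACGTG matches, as does the other Ldha promoter. Pkm, likewise higher, holds 1 match in one promoter and 0 in the other.

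In GRCm38, per the GENCODE M21 annotation, Hk1 (ENSMUSG00000037012) lies at chr10:62268855-62379908 and Hk2 (ENSMUSG00000000628) at chr6:82725025-82774454, Pfkl (ENSMUSG00000020277) at chr10:77986947-78010083 and Pfkp (ENSMUSG00000021196) at chr13:6579768-6648777. Pgk1 (ENSMUSG00000062070, chrX:106187100-106203699) is the only member on the X chromosome. Gapdh (ENSMUSG00000057666, chr6:125161715-125166467) has 87 annotated genes with near-identical transcripts, of which 2 are in the matrices with 2030 UMIs in all, or 0.594% of the 341970 UMIs of Gapdh itself, so copies in the matrices hold a small part of its reads. Aldoa (ENSMUSG00000030695, chr7:126795234-126800751) shares its symbol with a second identifier that held 4 UMIs in all and was not added.

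After removal of cells with at most 500 genes or at least 10% mitochondrial UMIs, 17544 cells remained, 4220 of WT, 5576 preleukemic, 5773 of T-ALL#1 and 1975 of T-ALL#2, with 24042062 to 70745712 UMIs per library. The median depth per cell was 3800.5, 4888, 8742 and 17581 UMIs in that order. Cells of T-ALL#2 alone also had to hold at least 3416 UMIs, because its matrix includes all barcodes. All 13 thymocyte markers were detected in every library, at 4303 to 9358 CPM in sum. WT also held 235 CPM of myeloid and 82.9 CPM of erythroid markers, against at most 3.25 and 0.221 CPM elsewhere, while B cell and stromal markers were at most 16.1 CPM in any library. The part of these cells in the enzyme levels was not tested. WT and preleukemic libraries are labelled male but held 1380 and 1869 CPM of Xist and only 1 and 5 UMIs of Y-linked genes, as did T-ALL#1, labelled female, with 1932 CPM and 1 UMI. The male T-ALL#2 held 0.0828 CPM of Xist and 4413 Y-linked UMIs. Any 2 libraries shared 0 to 9 cell barcodes, at most 0.253% of the smaller one. T-ALL#2 also differs from the rest in the version of the counting software, and the labels name more than 1 chemistry but assign none to a library, so neither can be told apart from the animals.

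Levels ranged from 3.83 to 1435 CPM among the enzymes of WT. Gapdh was the most abundant member in every library and Hk2 the least. In WT, the levels were 1435 CPM for Gapdh, 514 for Ldha, 453 for Pkm, 222 for Pgk1, 217 for Gpi1, 216 for Aldoa, 70.0 for Pfkp, 38.7 for Hk1, 37.7 for Pfkl and 3.83 for Hk2. The counting intervals of Pgk1, Gpi1 and Aldoa overlapped in WT, and so did those of Hk1 and Pfkl, so their order there is not known. The kinases at the entry of the pathway thus had the fewest transcripts and the enzymes from Aldoa onward, with Gpi1, the most. Over all cells of a library, Ldha was above Pkm in WT and preleukemic libraries, at 529 against 334 CPM in the latter. It was below Pkm in both leukemias, at 1036 against 1091 CPM in T-ALL#1 and 992 against 1079 CPM in T-ALL#2. The counting intervals (exact Poisson, 95%) of Ldha and Pkm did not overlap. Their order did not hold in every class of cells compared below. In all, the 10 genes took 3207 CPM in WT, 2814 in preleukemic cells, 6028 in T-ALL#1 and 5931 in T-ALL#2.

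**Figure D1:**
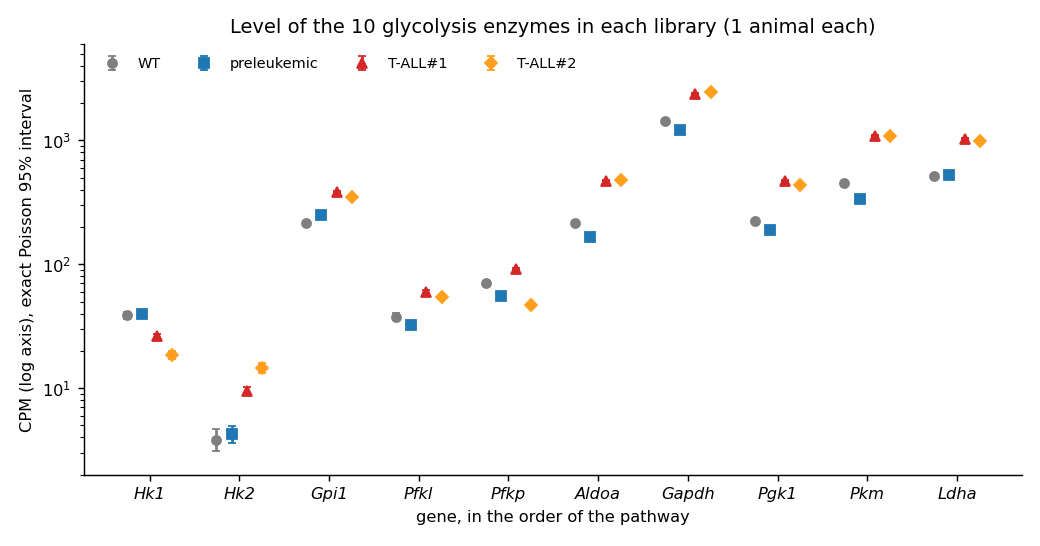
Level of each enzyme in the 4 libraries, in CPM on a log axis, with exact Poisson 95% intervals that cover counting error only. Most enzymes sit higher in both leukemias (triangles and diamonds) than in WT and the preleukemic library, Hk1 sits lower in both, and Pfkp is higher in T-ALL#1 only.

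The first comparison asked how the enzymes differ between WT, preleukemic and leukemic thymus. The enzymes together were at 2.14 times the preleukemic level in T-ALL#1 and 2.11 times in T-ALL#2, whereas the preleukemic library was at 0.877 times the WT level. Against WT, the leukemias were at 1.88 and 1.85 times. WT and preleukemic groups hold 1 animal each, so no test was made, and the intervals cover counting error but not variation among animals. Age also differs between the leukemic mice and the other mice, and cannot be told apart from leukemia. All comparisons with the preleukemic library share its cells. Of the 10 enzymes, 9 had a mean of at least 10 CPM over the libraries and Hk2 did not. Among these 9, 8 were over 1.5-fold higher in T-ALL#1 than in preleukemic cells, a share to be read against 11.1% of the 7753 genes with such a mean, and 1 was over 1.5-fold lower, against 22.1% of genes. In T-ALL#2, 6 of 9 were over 1.5-fold higher, against 8.77% of genes, and 1 lower, against 42.9%. Between preleukemic and WT libraries 0 of 9 passed 1.5-fold in either direction, where 7.02% of genes were higher and 8.62% lower. The median log2 ratio of the 9 enzymes was 0.97 for T-ALL#1 and 0.91 for T-ALL#2, beside -0.13 and -0.44 over all those genes. With TMM factors, which scale to the bulk of genes, every log2 ratio to the preleukemic library is greater by 0.26 in T-ALL#1 and by 0.50 in T-ALL#2.

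At the entry of the pathway, the hexokinases went opposite ways. Hk1, the form bound to mitochondria in most tissues, was at 38.7 CPM in WT, 39.6 preleukemic, 26.3 in T-ALL#1 and 18.5 in T-ALL#2. It was the 1 enzyme past 1.5-fold lower in both leukemias, with ratios to the preleukemic library of 0.664 (95% interval 0.621 to 0.710) and 0.466 (0.425 to 0.510). With TMM factors the ratio in T-ALL#1 was 0.794 and no longer past 1.5-fold. Hk2, the inducible form of muscle and of many tumors, was at 3.83, 4.23, 9.50 and 14.6 CPM in the same order, which put both leukemias above both other libraries. Its ratios to the preleukemic level were 2.24 (1.89 to 2.67) and 3.44 (2.89 to 4.11).

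At the committed step, Pfkl, the liver-type subunit, was at 37.7, 32.1, 60.2 and 54.4 CPM in WT, preleukemic, T-ALL#1 and T-ALL#2 cells. Both leukemias were above the other libraries, at 1.87 and 1.69 times the preleukemic level. Pfkp, the platelet-type subunit, was at 70.0, 56.0, 91.8 and 46.5 CPM. It was highest in T-ALL#1 and lowest in T-ALL#2, so the leukemias stood on either side of the other libraries. Its ratio to the preleukemic level was 1.64 for T-ALL#1 and 0.831 for T-ALL#2, and with TMM factors the latter turned to 1.18.

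Among enzymes of the middle of the pathway, Gpi1 was at 217 CPM in WT, 251.6 preleukemic, 384 in T-ALL#1 and 350 in T-ALL#2. T-ALL#1 was just past the 1.5-fold limit at 1.53 times the preleukemic level, and T-ALL#2 just inside it at 1.39 times. Aldoa was at 216, 165, 471 and 475 CPM in that order. Its ratios of 2.86 and 2.89 to the preleukemic level were below only those of Pkm among the 9 enzymes. Gapdh was at 1435, 1213, 2384 and 2463 CPM, or 1.97 and 2.03 times the preleukemic level in the leukemias. Pgk1, which is X-linked, was at 222, 190, 475 and 438 CPM, or 2.50 and 2.31 times. The higher of the leukemic levels was that of T-ALL#1, which carried Xist, and the lower that of T-ALL#2, which did not, and the part of the X chromosome in this was not tested.

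At the end of the pathway, Pkm was at 453 CPM in WT, 334 preleukemic, 1091 in T-ALL#1 and 1079 in T-ALL#2. It had the largest ratios of the 9 enzymes, 3.27 (3.21 to 3.33) and 3.23 (3.17 to 3.29), and also the largest difference between preleukemic and WT libraries, at 0.737 times. The 3′ reads do not separate the M1 and M2 splice forms of Pkm. Ldha was at 514, 529, 1036 and 992 CPM, or 1.96 and 1.88 times the preleukemic level. Unlike Pkm and Aldoa, it was at nearly the same level in WT and preleukemic cells, with a ratio of 1.03.

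Cells divided into cycling cells, with at least 1 UMI of Mki67 or Top2a, which are transcribed in dividing cells, and other cells. Cycling cells made up 20.6% of WT, 23.8% of preleukemic, 47.9% of T-ALL#1 and 61.9% of T-ALL#2 cells. Since detection rises with depth, each cell was also thinned to 2000 UMIs, which left out 991, 350, 94 and 0 shallower cells and gave 18.2%, 13.8%, 31.0% and 27.1%. A cell called other can thus be a dividing cell in which neither gene was detected. Thinning does not bring back the barcodes of T-ALL#2 under 3416 UMIs. The part of that limit in its cycling shares and levels was not tested. Within other cells, the enzymes together were at 2590 CPM in WT, 2218 preleukemic, 4324 in T-ALL#1 and 5116 in T-ALL#2, so that the leukemias were at 1.95 and 2.31 times the preleukemic level. Within cycling cells they were at 3969, 3525, 6662 and 6205 CPM, or 1.89 and 1.76 times. The difference between leukemic and preleukemic libraries was thus present in both classes of cells. Hk2 in other cells was at 3.24, 2.29, 7.72 and 10.8 CPM, and the leukemias were at 3.36 (2.43 to 4.72) and 4.69 (3.31 to 6.71) times the preleukemic level. Ldha in other cells of T-ALL#1 was at 1.39 times the preleukemic level, its smallest ratio, against 1.84 times in cycling cells. In cycling cells of T-ALL#1 Ldha was above Pkm, at 1201 against 1177 CPM, unlike over all cells. In those of T-ALL#2, at 1085 and 1108 CPM, their intervals overlapped (1072 to 1097 and 1095 to 1120). In other cells of WT both were at 430 CPM.

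The next comparison asked which enzymes differ between cycling and other cells of the same animal. Of the 10 enzymes, 6 rose in cycling cells and 0 fell, in edgeR's quasi-likelihood test of summed UMIs with the library as a block and Benjamini-Hochberg adjustment over 11856 genes. Over all genes 26.1% rose and 26.6% fell, so changes were common. The 6 were Ldha, Gapdh, Pgk1, Hk2, Pkm and Pfkl, each higher in 4 of 4 libraries, and the median log2 change of the 10 enzymes was 0.50 beside -0.04 over all genes. These log2 changes are on TMM-scaled sums and so differ from the ratios of the CPM values printed beside them.

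Ldha was at 618 CPM in cycling against 430 in other cells of WT, 651 against 427 in preleukemic cells, 1201 against 592 in T-ALL#1 and 1085 against 716 in T-ALL#2. It was higher in cycling cells in each library and had the smallest adjusted p of the members, with a log2 change of 0.86 ± 0.12 (SE, n = 4 libraries, edgeR adjusted p = 0.0014). Gapdh was at 2047 against 940 CPM in WT, 1695 against 809 in preleukemic cells, 2673 against 1607 in T-ALL#1 and 2593 against 2077 in T-ALL#2. In other cells of T-ALL#2 the level was above that in cycling cells of the preleukemic library. The log2 change of Gapdh was 0.98 ± 0.18 (edgeR adjusted p = 0.0031), from 0.36 in T-ALL#2 to 1.32 in preleukemic cells. Pgk1 was at 281 against 175, 251 against 139, 535 against 312 and 455 against 388 CPM in the same order of libraries. Its log2 change was 0.81 ± 0.15 (edgeR adjusted p = 0.0034), smallest in T-ALL#2 at 0.27.

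Hk2 was at 4.56 CPM in cycling against 3.24 in other cells of WT, 6.55 against 2.29 in preleukemic cells, 10.2 against 7.72 in T-ALL#1 and 15.9 against 10.8 in T-ALL#2. It rose by 0.88 ± 0.21 on the log2 scale (edgeR adjusted p = 0.0111), with 43 to 524 UMIs behind each level. Pfkl rose by 0.49 ± 0.09 (edgeR adjusted p = 0.0035), from 31.6 to 45.2 CPM in WT and by less in each other library. Pkm rose by 0.50 ± 0.13 (edgeR adjusted p = 0.0131), from 430 to 481, 278 to 400, 862 to 1177 and 992 to 1108 CPM in the 4 libraries. The call of Pkm was lost without T-ALL#1 (edgeR adjusted p = 0.105) and without the preleukemic library (edgeR adjusted p = 0.0615).

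The other 4 enzymes did not pass the test. Hk1 had a log2 difference of -0.09 ± 0.09 (edgeR adjusted p = 0.430), Gpi1 of 0.12 ± 0.10 (0.338), Pfkp of 0.10 ± 0.09 (0.372) and Aldoa of 0.15 ± 0.14 (0.395). In CPM, without TMM factors, Hk1 was lower in cycling cells beyond counting error in WT, preleukemic cells and T-ALL#1. Its ratios of cycling to other cells there were 0.775, 0.728 and 0.851, against 1.03 (0.859 to 1.23) in T-ALL#2. Aldoa differed by library, at 179 CPM in cycling against 245 in other cells of WT and at 502 against 387 in T-ALL#1. Pkm and Aldoa, which had the largest ratios of leukemic to preleukemic libraries among the 9 enzymes with a mean of at least 10 CPM, thus had smaller differences between cycling and other cells than Gapdh, Ldha and Pgk1 had. Hk2, below that level, had both a large ratio and a large difference.

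**Figure D2:**
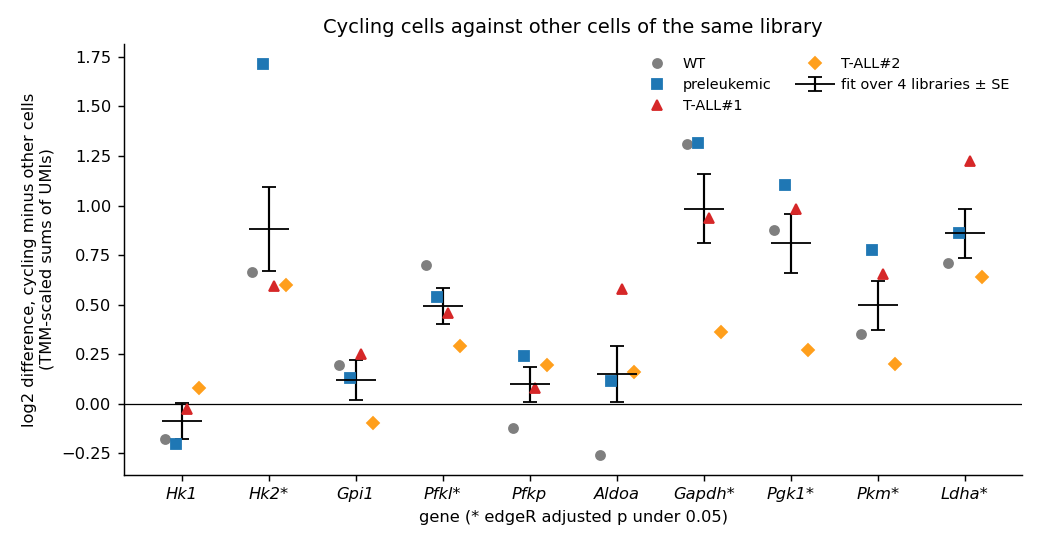
Log2 difference between cycling and other cells of the same library on TMM-scaled sums, with each library as a point and the edgeR fit with its SE as a black bar. For Ldha, Gapdh, Pgk1, Hk2, Pkm and Pfkl all 4 points lie above 0, and in T-ALL#2 (diamonds) the differences of Gapdh, Pgk1, Pkm, Ldha and Pfkl are the smallest of the 4.

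Cycling cells were deeper, with a median of 9866.5 against 3280 UMIs in WT, 12890 against 4316 in preleukemic cells, 18481 against 4788 in T-ALL#1 and 22654 against 11194 in T-ALL#2. Per cell, the enzymes together had 49.1 UMIs in cycling against 10.3 in other cells of WT, 49.5 against 11.6 in preleukemic cells, 124 against 27.6 in T-ALL#1 and 138 against 61.9 in T-ALL#2. With every cell thinned to 2000 UMIs, Gapdh, Ldha, Pgk1 and Pkm kept their call, and Hk2 (log2 change 0.35, edgeR adjusted p = 0.415) and Pfkl (0.33, edgeR adjusted p = 0.0533) lost it. At this depth a WT cell held a median of 6 enzyme UMIs when cycling and 5 otherwise, a preleukemic cell 5 and 4, a T-ALL#1 cell 12 and 7, and a T-ALL#2 cell 11 and 10. Cells varied widely around these medians. In T-ALL#1 the 5th and 95th percentiles over all cells were 3 and 21 UMIs and the variance was 3.9 times the mean, against 1.92 times in WT.

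**Figure D3:**
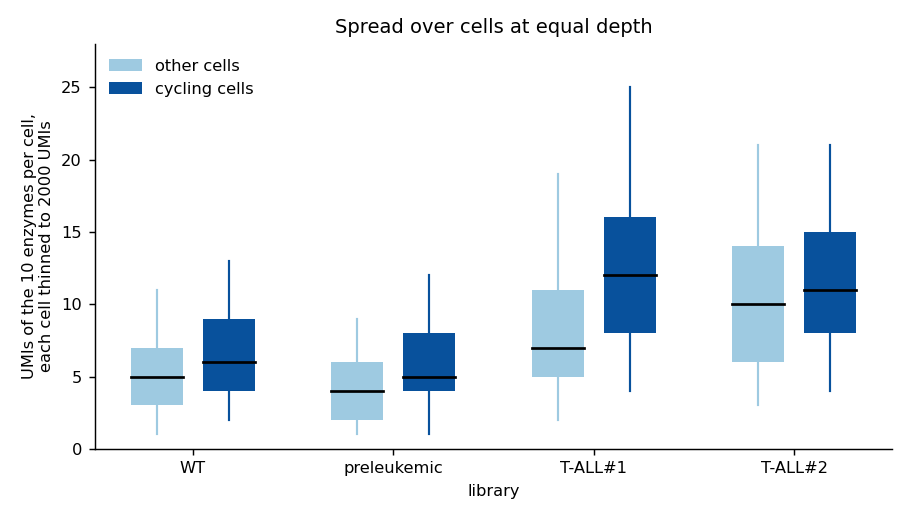
UMIs of the 10 enzymes per cell after thinning each cell to 2000 UMIs, with boxes from the 25th to the 75th percentile, black lines at the medians and thin lines from the 5th to the 95th percentile. The boxes of both leukemias lie higher than those of WT and preleukemic cells, and T-ALL#1 shows the widest gap between cycling and other cells, with medians of 12 and 7.

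Hexokinase UMIs divided differently between Hk1 and Hk2 in each library. Hk2 made up 8.99% of them in WT (92 Hk2 beside 931 Hk1 UMIs, exact binomial 95% interval 7.31 to 10.9%), 9.66% in preleukemic cells (8.33 to 11.1%), 26.5% in T-ALL#1 (24.8 to 28.3%) and 44.1% in T-ALL#2 (41.3 to 47.0%). WT and preleukemic intervals overlapped, and those of the leukemias overlapped neither these nor each other. The preleukemic share depended on how cells were weighed: it was 5.37% with every cell weighted equally and 4.64% (2.93 to 6.94%) with cells thinned to 2000 UMIs, where WT was at 8.30 and 8.33% (5.36 to 12.2%). When thinned, the intervals of T-ALL#1 (20.8 to 29.3%) and T-ALL#2 (29.1 to 47.2%) also overlapped. The share was higher in cycling than in other cells of each library, at 12.01 against 6.99% in WT, 16.6 against 4.83% in preleukemic cells, 28.8 against 20.7% in T-ALL#1 and 46.0 against 37.3% in T-ALL#2. The mean difference was 8.41 ± 2.77 percentage points (SD, n = 4 libraries, two-sided exact paired permutation test, p = 0.13, the smallest that 4 pairs allow). Even in other cells, the share in either leukemia was above that in cycling cells of WT and of the preleukemic library, although the intervals of T-ALL#1 (17.8 to 23.9%) and of cycling preleukemic cells (14.0 to 19.5%) overlapped.

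Phosphofructokinase UMIs divided the other way. Pfkp made up 65.0% of Pfkl and Pfkp UMIs in WT (63.1 to 66.9%), 63.5% in preleukemic cells, 60.4% in T-ALL#1 and 46.1% in T-ALL#2 (44.5 to 47.7%), so that Pfkl held the larger part in T-ALL#2 only. With cells thinned to 2000 UMIs the Pfkp share of T-ALL#2 was 53.8% (48.6 to 59.0%), and Pfkl no longer held the larger part. Pfkp had a lower share in cycling than in other cells of each library, at 57.8 against 70.8%, 61.0 against 65.8%, 58.8 against 64.9% and 45.7 against 47.4% in the same order. The intervals overlapped in T-ALL#2. The mean difference was -6.43 ± 4.79 percentage points (SD, n = 4 libraries, two-sided exact paired permutation test, p = 0.13, again the smallest possible). Without WT it was -4.22 ± 2.29 points (n = 3 libraries).

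**Figure D4:**
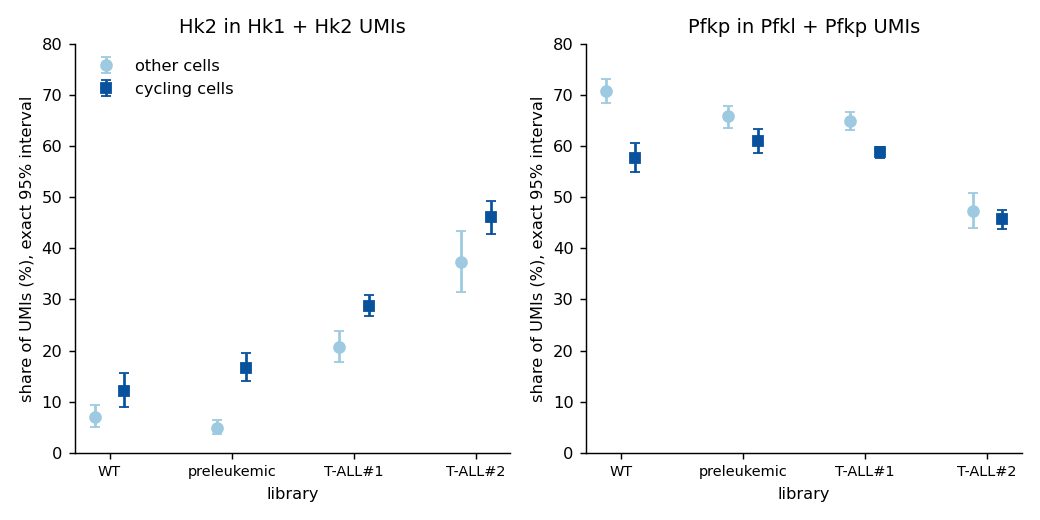
Share of Hk2 in hexokinase UMIs (left) and of Pfkp in Pfkl plus Pfkp UMIs (right), in other and cycling cells of each library, with exact binomial 95% intervals. The Hk2 share runs from 4.83% in other preleukemic cells to 46.0% in cycling cells of T-ALL#2, and the Pfkp share from 70.8% in other WT cells to 45.7% in cycling cells of T-ALL#2.

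Cells were last divided by detection of Cd4, Cd8a and Il2ra, the receptor chain CD25 that early thymocytes carry before they express CD4 and CD8. In a cell of low depth a transcript that is present can go undetected, so a class lacking a gene holds some cells that express it. The enzymes together were at 3073 to 4243 CPM over the 8 classes of WT, 2530 to 3451 over the 6 preleukemic classes with at least 20 cells, 5357 to 6859 over the 8 of T-ALL#1 and 3928 to 6327 over the 8 of T-ALL#2. Every class of T-ALL#1 was above every class of WT and of the preleukemic library. In T-ALL#2 all classes but one were above them, the exception being the 45 cells with Cd4 alone, at 3928 CPM.

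**Figure D5:**
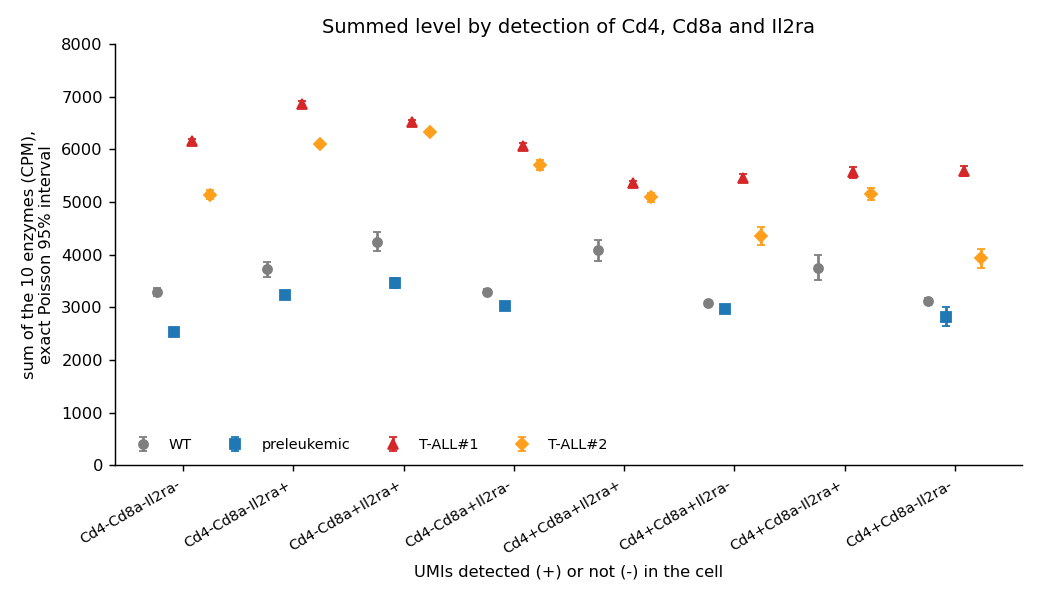
Summed level of the 10 enzymes in CPM, with exact Poisson 95% intervals, for cells grouped by detected (+) or undetected (-) UMIs of Cd4, Cd8a and Il2ra, in classes with at least 20 cells. In T-ALL#1 the class with Il2ra alone is the highest at 6859 CPM, and in T-ALL#2 classes with Cd4 and without Il2ra are the lowest, at 3928 and 4350 CPM.

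Cells with Il2ra and neither Cd4 nor Cd8a (Il2ra-only) were compared with cells that had Cd4 and Cd8a and no Il2ra. For normal thymus, Il2ra-only is the detection pattern of early thymocytes, and Cd4 with Cd8a that of the later double-positive stage. The classes held 54 and 2062 cells of WT, 465 and 196 preleukemic cells, 388 and 517 cells of T-ALL#1 and 498 and 65 cells of T-ALL#2. Cells with Cd4, Cd8a and Il2ra fell into neither class. There were 34 WT, 5 preleukemic, 1891 T-ALL#1 and 177 T-ALL#2 cells of this kind. Most Cd4 and Cd8a cells of both leukemias thus carried Il2ra as well, unlike those of WT. Whether the compared classes mark the same stages outside WT was not tested. Together the enzymes were higher in Il2ra-only cells of each library, at 3718 against 3073 CPM in WT, 3239 against 2965 in preleukemic cells, 6859 against 5458 in T-ALL#1 and 6095 against 4350 in T-ALL#2. With edgeR, 0 of the 10 enzymes passed the test, where 2.44% of 10212 genes were called higher and 2.08% lower. At an unadjusted p under 0.05 there were 5 enzymes and 25.7% of all genes tested, and DESeq2 called 1 enzyme. Of the 10 log2 differences 9 were positive, and their median was 0.34 beside -0.0043 over all genes.

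Ldha came nearest to the threshold. It was at 637 CPM in Il2ra-only against 436 in Cd4 and Cd8a cells of WT, 600 against 500 in preleukemic cells, 1254 against 867 in T-ALL#1 and 1072 against 484 in T-ALL#2, and so higher in 4 of 4 libraries. Its log2 difference was 0.70 ± 0.17 (SE, edgeR adjusted p = 0.0501), and it was called by DESeq2 (adjusted p = 0.0097). The differences of the other enzymes ran from -0.21 ± 0.17 for Pfkp (edgeR adjusted p = 0.462) to 0.73 ± 0.31 for Hk2 (edgeR adjusted p = 0.173). Il2ra-only cells were also more often cycling in 3 libraries, at 37.0 against 23.8% of cells in WT, 61.6 against 38.9% in T-ALL#1 and 69.9 against 41.5% in T-ALL#2, while the preleukemic shares were 41.9 and 42.3%. They were deeper too, with medians of 8995.5 against 2867.5 UMIs in WT and 21637 against 7873 in T-ALL#2, the libraries at the ends of the range of depth.

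Among cells with no UMI of Mki67 or Top2a, edgeR called 0 of the 9 enzymes tested, where 2.97% of 8325 genes were higher and 1.74% lower. There were 3 at an unadjusted p under 0.05, as were 22.6% of all genes tested, and DESeq2 called 1, Gapdh. Hk2 had too few UMIs to be tested. Gapdh had a log2 difference of 0.52 ± 0.16 (edgeR adjusted p = 0.0776), positive in 4 of 4 libraries. Ldha was at 247 CPM in Il2ra-only against 330 in Cd4 and Cd8a cells of WT, 410 against 343 in preleukemic cells, 703 against 523 in T-ALL#1 and 787 against 428 in T-ALL#2. WT, where the 34 Il2ra-only cells gave 80 UMIs of Ldha, thus went the other way. Without WT, both Ldha (edgeR adjusted p = 0.0249) and Gapdh (edgeR adjusted p = 0.0250) were called. Without T-ALL#1, Pfkl was called (edgeR adjusted p = 0.0443), against 0.0938 with all libraries.

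The isoenzyme shares of these classes differed in the same directions as those of cycling and other cells. The Hk2 share was higher in Il2ra-only cells of each library, by 6.54 ± 2.91 percentage points (SD, n = 4 libraries, two-sided exact paired permutation test, p = 0.13, the smallest possible). The exact intervals of the Hk2 share overlapped between these classes in every library. In Il2ra-only cells of WT the share rested on 6 Hk2 UMIs (6.56 to 33.6%). In Cd4 and Cd8a cells of T-ALL#2 it rested on 6 Hk2 and 9 Hk1 UMIs (16.3 to 67.7%). The Pfkp share was lower in Il2ra-only cells of each library, by a mean difference of -13.8 ± 13.5 points (exact paired permutation p = 0.13). Without WT it was -7.16 ± 3.37 points (n = 3 libraries). WT had the largest difference, with Pfkp at 30.8% (21.5 to 41.3%, from 28 Pfkp and 63 Pfkl UMIs) in Il2ra-only cells against 64.5% in Cd4 and Cd8a cells. There Pfkl was at 81.1 against 37.7 CPM and Pfkp at 36.0 against 68.4 CPM. Over the 4 exact tests of shares, the smallest p was 0.13, so none could pass a threshold of 0.05 before or after adjustment.

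The matrix of T-ALL#2 also holds barcodes without cells, and those with at most 100 UMIs show the RNA that was free in the suspension. The enzymes together were at 4350 CPM in them, against 5931 CPM in cells. Ldha was at 681 against 992 CPM. Hk1 and Hk2 were at 19.3 against 18.5 and 14.3 against 14.6 CPM, so they took like shares of the UMIs in both. These shares do not give amounts. The 1187978 empty barcodes held 35 UMIs of Hk1 and 26 of Hk2 in all, while T-ALL#2 cells held 0.339 and 0.267 UMIs per cell. The part of free RNA in the levels of cells was not tested. Empty barcodes of the other libraries were not analysed here.

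Other genes of the pathway were followed in lists. Of 19 other glycolytic enzymes and isoenzymes, 11 were tested in cycling against other cells, of which 4 rose and 3 fell (edgeR, median log2 change 0.09). Beside these counts, 26.1% of all genes tested rose and 26.6% fell. Tpi1, which interconverts the products of Aldoa, rose by 1.32 ± 0.23 (edgeR adjusted p = 0.0033) and Pgam1, the mutase after Pgk1, by 1.06 ± 0.14 (edgeR adjusted p = 0.0010), each in 4 of 4 libraries. The isoenzyme Pgam2 rose by 0.86, with only 8 UMIs in WT. Eno2, a neuronal enolase, fell by 1.45, with only 10 UMIs in T-ALL#2. Tpi1 was at 115 CPM in WT, 108 in preleukemic cells, 466 in T-ALL#1 and 416 in T-ALL#2, and Pgam1 at 144, 124, 322 and 297 CPM. Both thus had higher levels in both leukemias than in WT or preleukemic cells. Eno1, the main enolase and the enzyme after Pgam1, was at 441, 274, 324 and 304 CPM, with no leukemia above WT. In Il2ra-only against Cd4 and Cd8a cells, 3 of 9 rose and 1 fell, where 2.44% of all genes rose and 2.08% fell. Tpi1 (0.69 ± 0.14, edgeR adjusted p = 0.0385), Pgam1 (0.88 ± 0.16, edgeR adjusted p = 0.0325) and Pgam2 rose. Ldhb, the lactate dehydrogenase subunit that favours the formation of pyruvate, fell by 1.29 ± 0.20 on the log2 scale (edgeR adjusted p = 0.0237). In cells with no UMI of Mki67 or Top2a, 6 of the list were tested, Tpi1 and Pgam1 rose and Ldhb fell. There 2.97% of all genes rose and 1.74% fell.

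Among 14 transporters and regulators of the flux, 12 were tested in cycling against other cells, 4 rose and 2 fell. This count and those of the next lists are to be read against 26.1% of all genes that rose and 26.6% that fell. Txnip, which limits glucose uptake, fell by 1.49 ± 0.11 on the log2 scale (edgeR adjusted p = 0.0002), and was at 199 CPM in WT, 289 in preleukemic cells, 57.2 in T-ALL#1 and 30.7 in T-ALL#2. Slc16a3 and Slc16a1, which export lactate, rose by 0.94 and 0.80. The fructose 2,6-bisphosphate enzyme Pfkfb1 rose by 1.03, with only 17 to 46 UMIs per library. In the list on the fate of pyruvate, 7 of 14 rose and 2 fell. Pdk2, a kinase that inhibits pyruvate dehydrogenase, fell by 1.43 ± 0.28, its relative Pdk3 rose by 0.72, and Got2 and Mdh1 of the malate-aspartate shuttle rose by 0.75 and 0.70. All 7 genes of the pentose phosphate branch, which makes NADPH and ribose from glucose 6-phosphate, were tested and 5 rose, led by Tkt (1.02 ± 0.17, edgeR adjusted p = 0.0023), Pgls (0.89), Rpia (0.55) and G6pdx (0.49). Of the 6 factors that act on the pathway, 1 rose and 2 fell. Arnt, the partner of Hif1a, fell by 0.53, Hif1a itself by 0.23, and the hydroxylase Egln3 rose by 0.55. Of 11 other genes known to respond to low oxygen, 10 were tested, 1 rose and 3 fell, with falls of 0.71 for the demethylase Kdm3a, 0.55 for Bnip3l and 0.43 for P4ha1.

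In Il2ra-only against Cd4 and Cd8a cells, 0 of 10 transporters and regulators, 0 of 14 genes on the fate of pyruvate, 0 of 7 of the pentose phosphate branch and 0 of 6 factors passed the edgeR test, with 2, 2, 3 and 1 at an unadjusted p under 0.05, and 1 of 10 genes of the low-oxygen list fell, Kdm3a by 0.85. Without Mki67 and Top2a cells, 1 of 12 genes on the fate of pyruvate rose, Got2 by 0.80. In the other lists 0 of 7, 7, 6 and 7 genes passed, with 0, 2, 0 and 2 at an unadjusted p under 0.05. Over all genes, edgeR called 2.44% higher and 2.08% lower in the first comparison, and 2.97% and 1.74% in the second. At an unadjusted p under 0.05 there were 25.7% and 22.6% of all genes.

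Between libraries, 5 other glycolytic enzymes had a mean of at least 10 CPM, of which 3 were over 1.5-fold higher in T-ALL#1 than in preleukemic cells (Tpi1, Pgam1 and Ldhb) and 2 in T-ALL#2 (Tpi1 and Pgam1). By the same fold 0 were lower in T-ALL#1 and 1 in T-ALL#2, Bpgm. Of all genes with such a mean, 11.1% were higher and 22.1% lower in T-ALL#1, and 8.77% and 42.9% in T-ALL#2. Each count in this paragraph is to be read against these shares. Of the 7 pentose phosphate genes, 1 was over 1.5-fold higher in T-ALL#1 and 2 in T-ALL#2, while 0 and 1 (Rpe) were lower. Tkt, in both counts, was at 194, 248, 392 and 597 CPM. Of 6 transporters and regulators with such a mean, 0 were over 1.5-fold higher in either leukemia. In T-ALL#1 1 was lower (Txnip) and in T-ALL#2 2 were (Txnip and Slc16a1). Genes of this list below that mean are not in these counts. Among them, Slc16a3 was at 2.50 CPM in WT, 2.18 in preleukemic cells, 15.9 in T-ALL#1 and 6.04 in T-ALL#2. Pfkfb3 was at 12.6, 7.61, 7.39 and 5.02 CPM in the same order. Of the 12 genes on the fate of pyruvate 2 were higher in each leukemia, Got1 in both, and 0 were lower. Of the 6 factors, 2 were over 1.5-fold higher in each leukemia, Myc and Egln3 for T-ALL#1 and Egln1 and Egln3 for T-ALL#2. By the same fold 1 was lower for T-ALL#1 (Hif1a) and 3 for T-ALL#2 (Hif1a, Arnt and Vhl). Myc was at 25.9 CPM in WT, 39.6 in preleukemic cells, 67.2 in T-ALL#1 and 44.6 in T-ALL#2, and Hif1a at 88.4, 82.4, 48.9 and 48.9 CPM. Egln3 was at 9.69, 6.49, 45.0 and 32.9 CPM and Egln1 at 29.4, 29.2, 39.1 and 77.8 CPM, listed likewise. Of the 7 low-oxygen genes passing the level, 2 were over 1.5-fold higher in T-ALL#1 and 1 in T-ALL#2, Ndrg1 in both, at 4.9 CPM in preleukemic cells but 23.2 in WT. In the same list 1 was lower in T-ALL#1 (Mxi1) and 2 in T-ALL#2 (Mxi1 and Kdm3a). Low-oxygen genes below the level are again not counted. Among them, Adm was at 0 CPM in WT, 0.171 in preleukemic cells, 4.65 in T-ALL#1 and 22.8 in T-ALL#2. P4ha2 was at 0.333, 3.08, 0.325 and 0.166 CPM in that order, and so lower in both leukemias than in preleukemic cells. Genes named in this paragraph were chosen after their values were seen.

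The genes most like the 10 enzymes together were sought over 60 strata of library, cycling and detection class with at least 100000 UMIs, among 2898 genes with a mean of at least 50 CPM, by Pearson's r of log2(CPM + 1). The strata share libraries and depth, so r is a description. Outside the members, Tpi1 had the highest r at 0.960, before the proteasome subunit Psmb4 (0.939), Pgam1 (0.915), the nucleotide kinase Nme1 (0.914), and the mitochondrial genes Cox8a (0.902), Timm13 (0.899), Ndufb8 (0.896) and Atp5g1 (0.887). Among the members, whose UMIs are part of the sum, Pgk1 (0.969), Gapdh (0.947), Pkm (0.906) and Ldha (0.904) followed it most closely. Aldoa had an r of 0.775, Gpi1 of 0.644 and Pfkp of 0.204, and the remaining 3 enzymes were under 50 CPM.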

How the data were processed

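The authors deposited counts, that is UMIs per gene and barcode with no normalization, written with Cell Ranger 3.0.2 for WT, preleukemic and T-ALL#1 and version 4 for T-ALL#2, per the file headers. The submitters' processing notes name the build mm10. The matrix of T-ALL#2 holds all barcodes, and 2700 with at least 3416 UMIs (1/10 of the 99th percentile among the 10000 largest) were taken as cells. Cells with more than 500 genes and under 10% mitochondrial UMIs were kept. Doublets were not called, and the study's upper limit on genes per cell (mean plus 3 SD) was an alternative. No column of per-sample values of another series was present.

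UMIs were summed per library and class of cells and scaled to CPM, with exact Poisson intervals for levels, exact conditional intervals for ratios and Clopper-Pearson intervals for shares (95%, counting error only). Classes were compared with edgeR 4.0.16 (TMM factors, robust quasi-likelihood test, filterByExpr) in R 4.3.3, tested on simulated data beforehand, with Benjamini-Hochberg adjustment over all genes but those defining the classes and 0.05 as the threshold. Both sums of a library come from 1 animal, which pairs them, and their deviations from the class means had correlations of 0.839 to 0.909 over 7755 genes between cycling and other cells, so the library was a block. p-values measure the spread of the difference between classes over these 4 animals. Since the animals are of different groups, that spread also holds any difference between groups. DESeq2 1.42.0, other filters, thinning, leaving out each library and the leukemic libraries alone were alternatives (the last, and leaving out libraries for isoenzyme shares, chosen after seeing the data). Differences between libraries carry no test and were called past 1.5-fold. Named genes were the 10 enzymes and, in each list, the 4 with the largest change among those called with 1 direction in 4 of 4 libraries. Others, such as Slc2a1 and Slc2a3, were named after their values were seen. The members and lists were chosen with earlier results of these data known. Of the 31053 gene identifiers, 30934 (99.6%) were found in GENCODE M21. Protein sequences were not used here.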

Additional observations from a re-analysis of the deposited data

Results flagged for a closer look

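Aldoa went opposite ways in WT and in the other libraries when cycling and other cells were compared, each beyond counting error. The log2 difference was -0.26 in WT, 0.12 in preleukemic cells, 0.58 for T-ALL#1 and 0.16 for T-ALL#2, on TMM-scaled sums. In CPM the preleukemic library was also lower in cycling cells, at 156 against 172 CPM, so its direction depends on the scaling. Pkm in Il2ra-only against Cd4 and Cd8a cells was lower in preleukemic cells, by -0.13 on the log2 scale, and higher elsewhere, by 0.39 in WT, 0.55 in T-ALL#1 and 0.58 in T-ALL#2. WT and preleukemic groups hold 1 animal each, so neither difference between groups was tested.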

How the results depend on the processing

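The rise of 6 enzymes in cycling cells rested on pairing by library: with no replicate block, edgeR called 0 enzymes (0 at an unadjusted p under 0.05; DESeq2, with the block, called 6) and 922 genes in place of 6243. Without the block, 0 genes were called between Il2ra-only and Cd4 and Cd8a cells and 0 again without Mki67 and Top2a cells (1561 and 917 at an unadjusted p under 0.05). With cells thinned to 2000 UMIs, 3745 genes were called between cycling and other cells, and 255 between Il2ra-only and Cd4 and Cd8a cells without Mki67 and Top2a. The cause of these changes was not tested. For single enzymes, 99 of 110 alternative values between cycling and other cells kept their side of the threshold and none turned in sign among enzymes that were called.

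Between Il2ra-only and Cd4 and Cd8a cells, 461 genes and 0 enzymes were called. Testing every gene with at least 1 UMI gave 1859 genes and 2 enzymes (Ldha and Pfkl), and DESeq2 858 genes and 1 enzyme. The upper limit on genes per cell gave 81 genes, Cd4 and Cd8a cells with or without Il2ra 293 genes and 1 enzyme, and the leukemic libraries alone 1 enzyme. Leaving out 1 library gave 18 (without WT) to 352 genes, with 27 without the preleukemic library and 75 without T-ALL#2, and 0 enzymes. Without Mki67 and Top2a cells, 392 genes were called, against 1078 genes and 2 enzymes (Gapdh and Pfkl) with every gene, 1 enzyme with DESeq2 and 106 genes in the leukemic libraries alone. Leaving out 1 library gave 0 (without the preleukemic library, 1300 at an unadjusted p under 0.05) to 476 genes, with 37 without T-ALL#2, and 0 to 2 enzymes.

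The level of the enzymes together, preleukemic over WT, was 0.923 with every cell weighted equally, 0.850 thinned, 0.942 with the upper limit on genes, which removed 105 WT cells, and 0.909 with TMM factors. For T-ALL#1 over preleukemic it was 2.17 weighted equally, 2.19 with the limit and 2.56 with TMM factors, and for T-ALL#2 2.37 weighted equally, 2.35 thinned, 2.15 with the limit and 2.98 with TMM factors. At 2-fold, 3 enzymes were higher in T-ALL#1 and 0 lower, and with TMM factors 0 were lower. The Hk2 share was 7.11% in WT with the limit, 5.37% in preleukemic cells, 22.2% in T-ALL#1 and 39.7% in T-ALL#2 with cells weighted equally, and 4.64% and 37.8% in preleukemic cells and T-ALL#2 when thinned. The Pfkp share with cells weighted equally was 70.6, 65.7, 65.1 and 49.0% in WT, preleukemic, T-ALL#1 and T-ALL#2 cells, when thinned 69.0, 66.2, 62.8 and 53.8%, and 68.1% in WT with the limit. So the larger part of Pfkl in T-ALL#2 did not hold when thinned. Groups of 1 animal, the 54 Il2ra-only cells of WT and the low counts of Hk2 limit what these data show.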
